A study of Homo sapiens with 10 samples.

Results

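E2F1, the transcription factor that drives entry into S phase, and 5 genes of DNA replication and its copying of DNA methylation, CDC45, UHRF1, FEN1, MCM6 and MCM7, were followed across 10 clones of PC-3 cells. Each gene was represented by its 1 row in the deposited table, and the 6 genes are 6 of 14884 genes with a named row. They were selected on the comparison of CENPU clones with empty-vector clones, as genes of S phase whose limma adjusted p was under 0.05 there. Their differences between the groups are therefore given as descriptions, without a test.

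PC-3 is an established line from a bone metastasis of prostate cancer. All 10 clones had received a p-Lenti lentiviral vector, were kept under blasticidin, and were taken as clonal isolates. In 5 of them, numbered 1, 4, 5, 7 and 13, the vector carried the centromere gene CENPU, and in 5 control clones, numbered 1 to 5, it was empty. Total RNA of each clone was measured on 1 Affymetrix array, and no promoter of the vector is named in the labels.

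Before S phase, the origin recognition complex and its loaders place rings of MCM2 to MCM7 on DNA, where they stay inactive. At the G1 to S transition cyclin-dependent kinases release E2F1 and its relatives from the retinoblastoma protein, E2F factors activate the genes of the replication machinery, and CDC45 joins the MCM ring to form the active helicase. FEN1 then trims the flaps between Okazaki fragments, and UHRF1 brings the methyltransferase DNMT1 to newly copied DNA. E2F sites are textbook elements of the promoters of many genes of this machinery.

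The letters upstream of the starts are shown for the 4 genes that hold an E2F string searched here. They are shown because MCM6 holds such strings as the others do, while its level differed in the opposite direction. The sequences are from RefSeq on GRCh38.p14, whose promoter table matched all 6 genes and covers 250 bases before to 50 after each start. The strings were TTTCCCGC, TTTGGCGC, TTTCGCGC and TTTGCCGC, searched on both strands. Other forms of an E2F site were not searched, so a gene without these strings may still hold a site. At least 1 of these strings was present at 3.31% of the 35116 starts of that table. Each line gives the 200 bases before the first listed start, 5′ to 3′ on the strand of the gene, with E2F matches in capitals. The windows are chr20:33686386-33686585 (minus strand) for E2F1, chr19:4909301-4909500 (plus strand) for UHRF1, chr7:100101398-100101597 (minus strand) for MCM7 and chr2:135876444-135876643 (minus strand) for MCM6.
E2F1: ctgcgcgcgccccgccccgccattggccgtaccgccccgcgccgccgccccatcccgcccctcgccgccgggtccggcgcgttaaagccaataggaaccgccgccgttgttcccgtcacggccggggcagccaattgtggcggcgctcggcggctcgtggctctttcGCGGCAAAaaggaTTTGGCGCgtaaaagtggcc
UHRF1: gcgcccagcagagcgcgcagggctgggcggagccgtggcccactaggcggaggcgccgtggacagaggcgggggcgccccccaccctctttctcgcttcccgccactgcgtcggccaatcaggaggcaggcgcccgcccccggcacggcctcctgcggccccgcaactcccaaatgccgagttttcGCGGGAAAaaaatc
MCM7: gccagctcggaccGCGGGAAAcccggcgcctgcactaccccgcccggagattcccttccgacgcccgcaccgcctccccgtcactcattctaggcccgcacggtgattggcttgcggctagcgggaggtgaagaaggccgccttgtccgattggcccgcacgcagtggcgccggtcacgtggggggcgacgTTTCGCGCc
MCM6: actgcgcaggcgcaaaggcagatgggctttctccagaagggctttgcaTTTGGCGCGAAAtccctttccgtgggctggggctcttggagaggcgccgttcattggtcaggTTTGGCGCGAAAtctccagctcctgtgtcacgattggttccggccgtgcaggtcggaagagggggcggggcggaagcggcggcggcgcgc

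The E2F1 promoter itself held 2 matches, at -33 to -26 and at -20 to -13, and UHRF1 held 1, at -14 to -7. MCM7 held matches at -187 to -180 and at -9 to -2. MCM6 held 4 matches, more than any of the other 5 genes at their first listed start. They lie as 2 copies of the same 12 letters, TTTGGCGCGAAA, in which TTTGGCGC and the reverse complement of TTTCGCGC overlap. The copies begin at -152 and -90. CDC45, with 3 listed starts, and FEN1, with 1, held none of the 4 strings in these windows. A second listed start of UHRF1 held 1 match and another start held 0, and the other 2 starts of MCM7 held 0. The CCAAT box, searched as CCAAT on both strands and present at 34.6% of all starts, was found 4 times at CDC45, 3 times each at E2F1 and MCM7, 2 times at MCM6, 1 time at UHRF1 and 0 times at FEN1. The GC box, searched as GGGCGG and present at 45.0% of all starts, was found at each of these genes except FEN1. The CHR motif, searched as TTTGAA and present at 15.2% of all starts, was found at 0 of the 6. These matches are descriptions of the letters and not of binding.

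**Figure D1:**
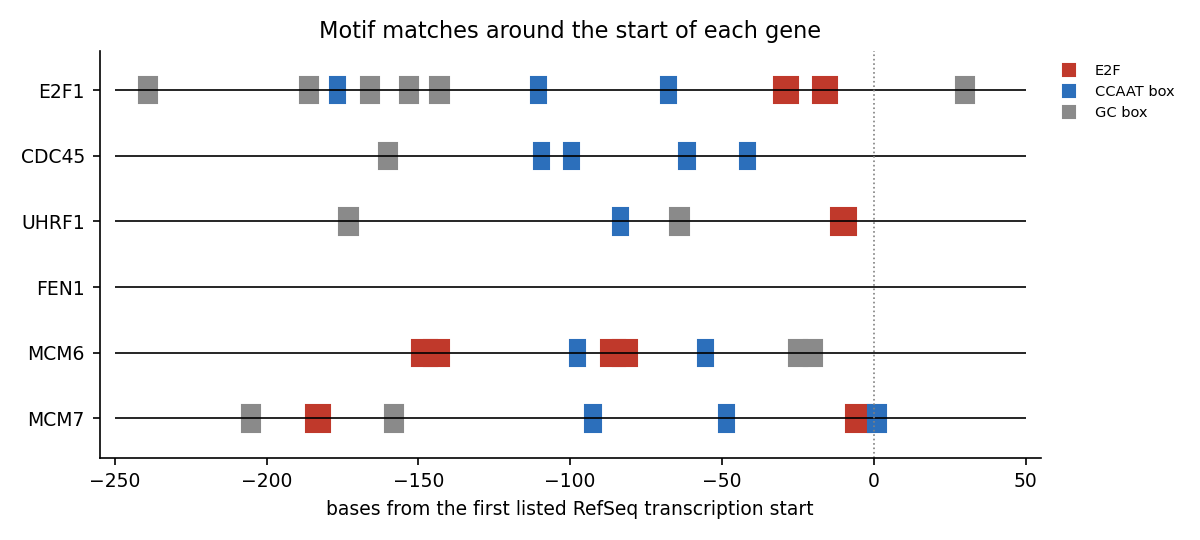
Motif matches in the promoter window of each of the 6 genes. The x axis gives bases from the first listed RefSeq start, and boxes mark E2F strings (red), CCAAT boxes (blue) and GC boxes (grey). The 4 E2F matches of MCM6 form 2 overlapping pairs, and FEN1 holds 0 matches.

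Values are log2 expression values as deposited, so a difference of 1 is a doubling, and rows of different genes cannot be set against each other as levels. Array medians lay between 4.62 and 4.76, and array pairs correlated at 0.955 to 0.993 within groups and 0.918 to 0.986 between them. Of 14884 genes, 5.31% were called higher and 4.79% lower in CENPU clones (limma, Benjamini-Hochberg adjusted p under 0.05). CENPU had 8.70 to 9.84 in CENPU clones, against 5.78 to 6.56 in control clones, so each clone matched its label. The epithelial keratin KRT18 had 10.27 to 11.14 over the 10 clones and KRT8 6.36 to 7.07. KLK3, the androgen-driven gene of prostate-specific antigen, had 5.36 to 5.72 and KLK2 5.33 to 5.78. The fibroblast gene DCN had 2.55 to 2.99 and the endothelial gene PECAM1 4.88 to 6.21. Means of named rows had a median of 5.77. Since rows of different genes cannot be compared as levels, these values do not establish cell identity. Among the 4 measured genes listed as markers of the PC-3 line, VIM, the intermediate filament vimentin, rose by 0.74 (limma adjusted p = 0.00446). EPCAM, an epithelial adhesion gene, had 5.74 to 7.62 over the clones and differed by 0.85 (limma adjusted p = 0.0839).

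E2F1 had the largest fall of the 6 genes, 1.94-fold. CENPU clones 1, 4, 5, 7 and 13 had log2 values of 8.97, 8.75, 8.75, 8.6 and 8.64, against 9.37, 10.23, 9.72, 9.75 and 9.43 in control clones 1 to 5. The groups did not overlap, and the nearest clones, CENPU 1 and control 1, lay 0.40 apart. The group means were 8.74 ± 0.15 in CENPU clones, against 9.70 ± 0.34 in control clones (SD, n = 5 each), a log2 difference of -0.96 (standard error 0.15). Control clone 2 was the highest of all clones. Among all genes that were lower, E2F1 ranked 35 by the size of the difference.

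CDC45, which turns the loaded MCM ring into a working helicase, was 1.6-fold lower. Its values were 8.15, 8.03, 7.83, 7.87 and 7.84 in CENPU clones 1, 4, 5, 7 and 13, against 8.61, 8.39, 8.43, 8.74 and 8.93 in control clones 1 to 5. The CENPU clones lay close together, and the groups were 0.23 apart at their nearest clones. The means were 7.95 ± 0.14 in CENPU clones, against 8.62 ± 0.22 in control clones (SD, n = 5 each), with a log2 difference of -0.68 (standard error 0.12).

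FEN1, the flap endonuclease of the lagging strand, was 1.42-fold lower. CENPU clones 1, 4, 5, 7 and 13 had 8.49, 8.22, 8.45, 8.54 and 8.49, against 9.09, 8.81, 8.73, 9.06 and 9.02 in control clones 1 to 5. CENPU 4 was the lowest clone, control 3 was the lowest control, and the groups did not overlap. The means were 8.44 ± 0.12 in CENPU clones, against 8.94 ± 0.16 in control clones (SD, n = 5 each), and the log2 difference was -0.50 (standard error 0.10).

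UHRF1, which recognises hemimethylated DNA behind the fork, was 1.44-fold lower. Its values were 9.74, 9.40, 9.50, 9.23 and 9.13 in CENPU clones 1, 4, 5, 7 and 13, against 9.80, 9.87, 9.88, 10.15 and 9.92 in control clones 1 to 5. Here the groups nearly touched, since CENPU 1 lay 0.06 below control 1. The means were 9.40 ± 0.24 in CENPU clones, against 9.92 ± 0.13 in control clones (SD, n = 5 each), with a log2 difference of -0.53 (standard error 0.12). In the fits without CENPU 7, CENPU 13, control 4 or control 5 its adjusted p was above the threshold.

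MCM7, a subunit of the helicase ring, was 1.34-fold lower, the smallest difference of the 6. CENPU clones 1, 4, 5, 7 and 13 had 9.44, 9.57, 9.19, 9.20 and 9.10, against 9.66, 9.80, 9.59, 9.82 and 9.72 in control clones 1 to 5. CENPU 4 lay 0.02 below control 3, so the groups were barely separate, while CENPU 5, 7 and 13 lay lower. The means were 9.30 ± 0.20 in CENPU clones, against 9.72 ± 0.10 in control clones (SD, n = 5 each), with a log2 difference of -0.42 (standard error 0.11). MCM7 passed in 4 of the 10 fits that left out 1 clone, and not in those without CENPU 5, CENPU 7, CENPU 13, control 2, control 4 or control 5.

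MCM6, the neighbour of MCM2 in the same ring, was 2.12-fold higher and was the 1 gene of the 6 to rise. CENPU clones 1, 4, 5, 7 and 13 had 7.70, 7.64, 8.81, 8.26 and 8.41, against 7.45, 6.46, 7.25, 7.16 and 7.06 in control clones 1 to 5. CENPU 1 and 4 lay just above the highest control, clone 1, by 0.19 at the nearest, whereas CENPU 5, 7 and 13 lay well above it. Control 2 was the lowest clone. The means were 8.16 ± 0.49 in CENPU clones, against 7.08 ± 0.37 in control clones (SD, n = 5 each), the widest spread of the 6 genes in both groups. The log2 difference was 1.09 (standard error 0.24). Without control 2, CENPU 7 and CENPU 13, the clones at the ends of a gene span trend described below, it was 0.82 and no longer passed.

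All 6 genes had groups that did not overlap, against 9.73% of all genes, and nothing is read from this count because the choice of genes used the same comparison. Among the 6, MCM7 lay nearest inside the threshold, at a log2 difference of -0.42. Of the pathway genes below, LIN37, USP7 and GMPS lay nearer to it. Just outside it lay HAT1 (1.11), which acetylates new histones, CCNE1 (-0.65), TFDP2 (0.74), GINS4 (0.54) and MCM2 (-0.42). HAT1, whose groups overlapped, was named after its value was seen. In RNA from whole cultures, fewer cells in S phase and less RNA per cell cannot be told apart.

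**Figure D2:**
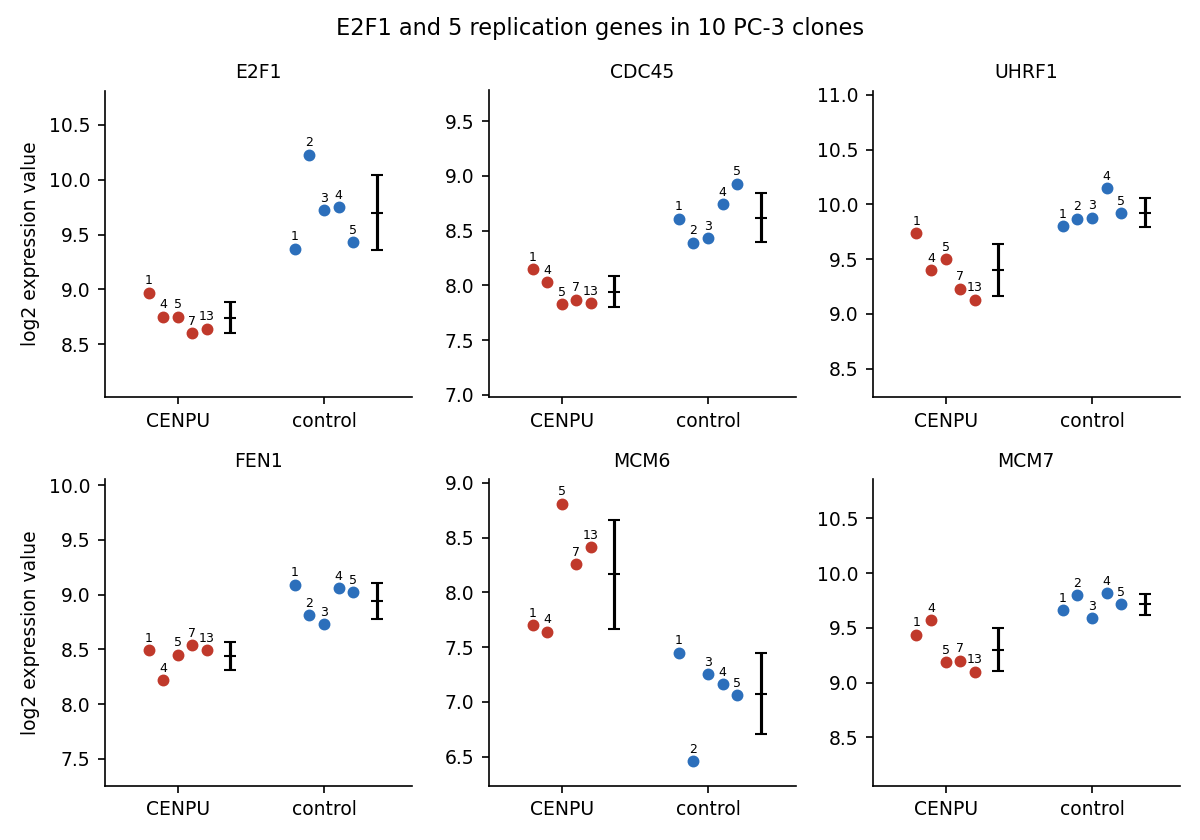
Log2 expression value of each of the 6 genes (y axis, the same height of scale in each panel) in 5 CENPU clones (red, left) and 5 control clones (blue, right), with clone numbers. Bars give mean ± SD. In MCM6 the CENPU clones sit above the control clones, at 7.64 to 8.81 against 6.46 to 7.45, and in the other 5 genes they sit below them.

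MCM6 was then set against the mean of the other 5 genes in each clone. Only differences between clones of this quantity can be read, since rows of different genes have different baselines. It was -1.26, -1.16, 0.06, -0.43 and -0.23 in CENPU clones 1, 4, 5, 7 and 13, against -1.86, -2.96, -2.02, -2.35 and -2.35 in control clones 1 to 5. CENPU 5, 7 and 13 lay highest and control 2 lowest, and the groups were 0.60 apart at their nearest clones. The means were -0.60 ± 0.58 in CENPU clones, against -2.31 ± 0.42 in control clones (SD, n = 5 each), a relative shift of 1.7 on the log2 scale, or 3.25-fold. The mean of the other 5 genes, which averaging makes steadier than a single gene, was 8.76 ± 0.12 in CENPU clones, against 9.38 ± 0.09 in control clones (SD, n = 5 each).

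The other 4 subunits had negative differences, like MCM7, with overlapping groups, and none passed in limma, though 3 had an unadjusted p under 0.05. After median centring MCM2 passed (limma adjusted p = 0.0472) and MCM4 did not (limma adjusted p = 0.0952). After quantile normalization MCM4 passed (limma adjusted p = 0.041) and MCM2 did not (limma adjusted p = 0.0646). With the gene span trend removed neither passed (limma adjusted p = 0.0714 for MCM2 and 0.0755 for MCM4). MCM2 had 9.11 ± 0.23 in CENPU clones, against 9.53 ± 0.20 in control clones (SD, n = 5 each), a log2 difference of -0.42 (limma adjusted p = 0.0661). MCM5 differed by -0.39 (limma adjusted p = 0.0942) and MCM4 by -0.31 (limma adjusted p = 0.0885). MCM3 had 10.05 ± 0.14 in CENPU clones, against 10.09 ± 0.23 in control clones (SD, n = 5 each), with a log2 difference of -0.04 (standard error 0.12, limma adjusted p = 0.85). MCM3, MCM4 and MCM5 lie outside the rule for named genes and were chosen after their values were seen.

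**Figure D3:**
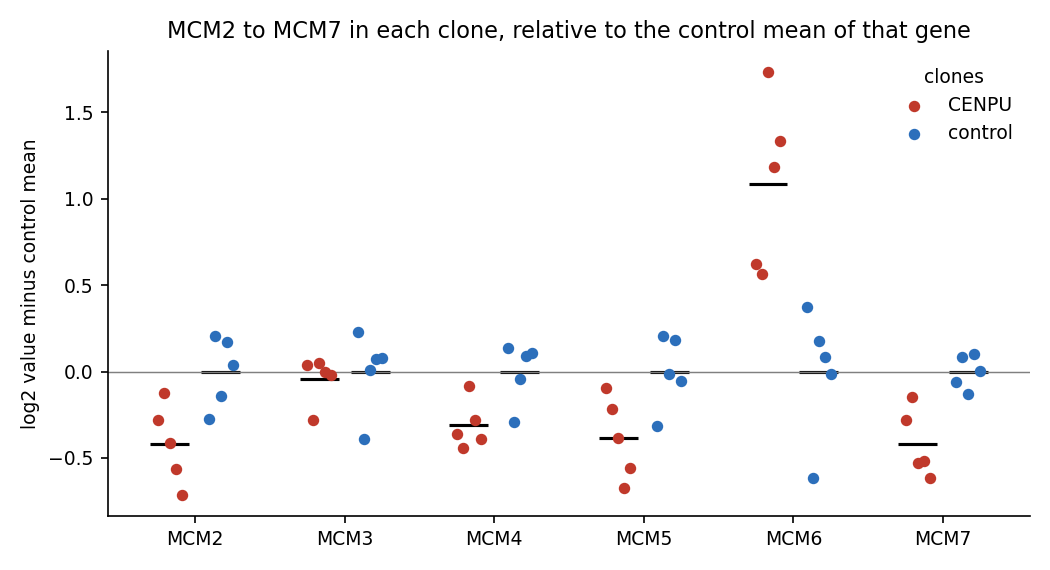
MCM2 to MCM7 in each clone, as log2 value minus the control mean of that gene (y axis), for CENPU clones (red, left) and control clones (blue, right), with group means as lines. MCM6 has a CENPU mean of 1.09 above the control mean, while the other 5 subunits have CENPU means between -0.42 and -0.04.

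The rest of the pathway was described through 9 lists by role, with the 6 genes left out. The lists name 131 different genes, of which 78 had a named row. Of these 78, 8 were lower, 2 were higher and 68 did not pass. The 8 are 10.3% of the measured list genes, against 4.79% of all genes called lower, and the 2 are 2.56%, against 5.31% called higher. Over both directions 12.8% of the list genes were called, against 10.1% of all genes. Their log2 differences had a median of 0.06, against -0.02 over all genes. Without control 2, CENPU 7 and CENPU 13, 4 list genes were lower and 0 higher, and only 1 of the original 8, CDC25A, was among the 4. Without CENPU 7, CENPU 13, control 2 or control 4 the counts were 3 or 4 lower and 0 higher, without CENPU 5 or control 3 they were 7 and 6 lower and 0 higher, without control 5 they were 5 lower and 1 higher, and without CENPU 1 or CENPU 4 they were 9 lower with 6 and 7 higher. Removal of the gene span trend gave 8 lower and 4 higher, and 6 of the original 8 and both of the original 2 were among them, while CDK2 and LIN37 were not (limma adjusted p = 0.0839 and 0.0771).

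The kinases and cyclins of G1 and S phase, with their inhibitors, held 3 of the 8 genes that fell, and 10 of the 13 measured members did not pass (median -0.07). The 3 are 23.1% of the list, against 4.79% of all genes called lower. Of the listed inhibitors only CDKN2A had a named row, and CDKN1A, CDKN1B, CDKN1C, CDKN2B, CDKN2C and CDKN2D had none. CDC25A, the phosphatase that activates CDK2, had 8.0 to 8.11 in CENPU clones, against 8.73 to 8.84 in control clones. The groups were 0.62 apart and each was tight, with SDs of 0.05 in CENPU clones and 0.04 in control clones (n = 5 each). It fell by 0.71 on the log2 scale with a standard error of 0.07 (limma adjusted p = 0.000989), and passed in all 10 fits without 1 clone. CCND3, encoding cyclin D3, fell by 0.57 (limma adjusted p = 0.0151), and CDK2, the kinase partner of cyclins E and A, by 0.40 (limma adjusted p = 0.0276). CDK2 passed in 3 of the 10 fits without 1 clone, and not without CENPU 5, CENPU 7, CENPU 13, control 1, control 2, control 4 or control 5. CCNE1, encoding cyclin E1 and named after its value was seen, differed by -0.65 and did not pass (limma adjusted p = 0.055).

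Among E2F relatives, pocket proteins and the MuvB complex that represses cell cycle genes, 2 of 15 fell, none rose and 13 were not called, so that 13.3% of the list was called, against 10.1% of all genes. The median was 0.24. E2F4, E2F5 and E2F6 of this list had no named row. E2F2, an activating relative of E2F1, had 6.67 ± 0.22 in CENPU clones, against 7.23 ± 0.20 in control clones (SD, n = 5 each), and fell by 0.56 (limma adjusted p = 0.0236). It did not pass without CENPU 7, CENPU 13, control 2, control 3 or control 4. LIN37, a MuvB subunit, fell by 0.41 (limma adjusted p = 0.046) and passed only in the fits without CENPU 1 or CENPU 4 among those without 1 clone. The pocket protein genes RB1, RBL1 and RBL2 differed by 0.76, 0.38 and 0.48 (limma adjusted p from 0.267 to 0.309), and TFDP2, which encodes a dimer partner of E2F proteins, had 0.74 (limma adjusted p = 0.0566). These 4 were named after their values were seen.

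Textbook targets of E2F factors, a list that overlaps the others, had a median log2 difference of -0.28. CDC25A and E2F2 fell, none of the 23 measured genes was higher and 21 were not called. The share called was 8.70%, against 10.1% of all genes. Negative log2 differences made up 69.6% of the list, 16 genes, against 53.1% of all genes. Loading factors of the helicase had 3 measured members with a median of 0.14, and 0 passed in limma, although 1 had an unadjusted p under 0.05. That gene was CDT1, which loads the MCM ring (-0.48, limma adjusted p = 0.155). The origin recognition genes ORC1 to ORC6 and the gene GMNN, also on this list, had no named row. The MCM list beyond MCM6 and MCM7 had a median of -0.04, and 0 of 7 passed in limma, against 10.1% of all genes. Of the 7, 4 had an unadjusted p under 0.05, or 57.1%, against 27.9% of all genes. These 4 were MCM2, MCM4 and MCM5, with negative differences, and MCM9, which had 0.38 (limma adjusted p = 0.115). MCM9 was named after its value was seen.

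Helicase activation and fork protection had 1 of 14 genes lower and 13 that did not pass, with a median of 0.14. That is 7.14% of the list, against 10.1% of all genes called. RECQL4, a helicase that takes part in initiation, had 7.86 ± 0.13 in CENPU clones, against 8.55 ± 0.30 in control clones (SD, n = 5 each), and fell by 0.69 (limma adjusted p = 0.0143). GINS4, a subunit of the active helicase, had 0.54 and TOPBP1, an activator of CDC45 loading, 0.88, and neither passed (limma adjusted p = 0.0579 and 0.072). Both were named after their values were seen. Of the polymerase, clamp and lagging strand genes only 2 of 26 had a named row. DNA2, a nuclease of flaps, differed by 0.61 (limma adjusted p = 0.16), and PCNA, the sliding clamp, which was named after its value was seen, by -0.40 (limma adjusted p = 0.215). In that list 0 passed in limma and 1 had an unadjusted p under 0.05, and the median was 0.10.

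In nucleotide supply, 1 of 12 genes fell, 1 rose and 10 did not pass (median -0.08), so 16.7% were called, against 10.1% of all genes. DCTPP1, which cleaves dCTP, fell by 0.44 (limma adjusted p = 0.0223), and GMPS, the GMP synthetase, had 9.56 ± 0.41 in CENPU clones, against 8.62 ± 0.48 in control clones (SD, n = 5 each). GMPS rose by 0.94 with overlapping groups (limma adjusted p = 0.0331). The list of maintenance methylation and chromatin assembly, to which UHRF1 belongs by role, likewise had 1 of 9 lower, 1 higher and 7 that did not pass (median -0.06), or 22.2% called, against 10.1% of all genes. ASF1B, a histone chaperone, fell by 0.49 (limma adjusted p = 0.0243). USP7, the deubiquitinase that protects UHRF1 and DNMT1, rose by 0.91, with 8.67 ± 0.44 in CENPU clones, against 7.76 ± 0.45 in control clones (SD, n = 5 each) and overlapping groups (limma adjusted p = 0.0379). DNMT1, the maintenance methyltransferase, was named after its value was seen and differed by -0.12 with a standard error of 0.12 (limma adjusted p = 0.521).

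Several of these calls were lost in fits without 1 clone, while the differences kept their direction. GMPS did not pass without CENPU 5, CENPU 7, CENPU 13, control 2, control 3 or control 4, and its difference ran from 0.77 to 1.07 over the 10 fits. USP7 did not pass without these or control 5, at 0.72 to 1.05. ASF1B did not pass without CENPU 7, CENPU 13, control 2, control 4 or control 5, at -0.54 to -0.42, and DCTPP1 did not pass without CENPU 7, control 2 or control 4, at -0.49 to -0.38. RECQL4 and CCND3 passed in each of these 10 fits, but without control 2, CENPU 7 and CENPU 13 together RECQL4 differed by -0.53 (limma adjusted p = 0.0717) and CCND3 by -0.41 (limma adjusted p = 0.119).

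**Figure D4:**
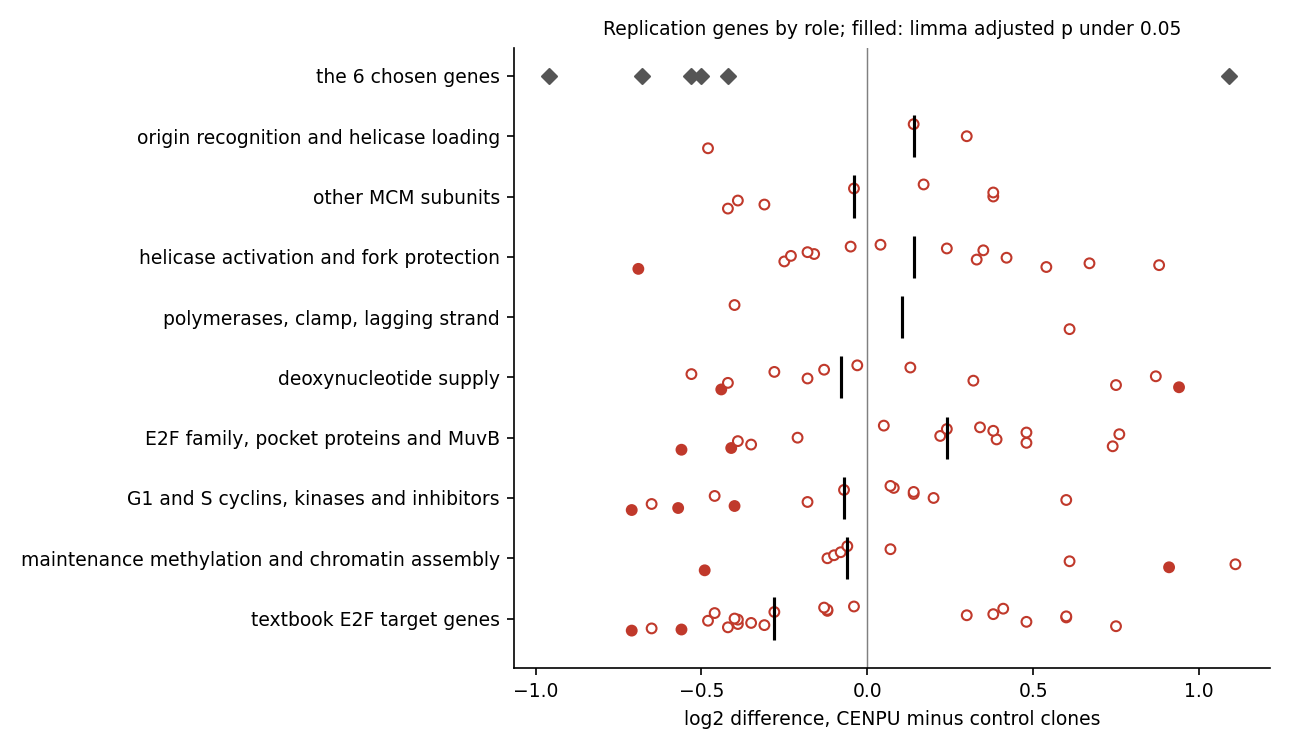
Log2 difference, CENPU minus control clones (x axis), of the 6 chosen genes (grey diamonds) and of the other measured genes of 9 lists by role (circles). Filled circles passed in limma, black lines are list medians, and 8 of 78 genes lie filled on the left of zero against 2 on the right.

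The arrays differed in a trend with gene length that moved with the groups. In each array, the deviation of 11916 protein-coding genes from their mean over all clones was correlated with genomic span. The correlation was -0.160 to 0.36 in CENPU clones and -0.355 to -0.093 in control clones. The spans of the 6 genes are 10.9 kb for E2F1, 41.1 kb for CDC45, 59.1 kb for UHRF1, 4.33 kb for FEN1, 36.8 kb for MCM6 and 8.67 kb for MCM7. MCM6, which rose, is thus shorter than CDC45 and UHRF1 and longer than E2F1, FEN1 and MCM7, all of which were lower. GMPS and USP7, the list genes that rose, span 74.6 and 71.8 kb, and 7 of the 8 that fell span 5.94 to 31.3 kb. CCND3, the other that fell, spans 115 kb. All but CCND3 of the list genes that fell are thus shorter than both that rose. The part of gene length in these calls was not tested beyond the removal of the trend.

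Within groups, the levels of some of these genes also followed this trend from clone to clone. The relation was measured on deviations from the group mean over 10 clones, by exact two-sided permutation within groups, for 6 relations with Benjamini-Hochberg adjustment. MCM7 had r = -0.87 (exact permutation p = 0.0122, adjusted p = 0.0365) and rho = -0.87 (exact permutation p = 0.015, adjusted p = 0.0358). Without CENPU 1 and CENPU 4, the clones farthest from the median of the trend, r was -0.75 (exact permutation p = 0.0708), in a test with fewer clones. E2F1 had r = -0.67 (exact permutation p = 0.000764, adjusted p = 0.00458) and rho = -0.64 (exact permutation p = 0.0179, adjusted p = 0.0358), and r was -0.85 without those clones (exact permutation p = 0.00833). Both genes were thus lower in clones in which long genes were higher.

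MCM6 went the other way, with r = 0.77 (exact permutation p = 0.0297, adjusted p = 0.052) and rho = 0.79 (exact permutation p = 0.0144, adjusted p = 0.0358), and r was 0.46 without CENPU 1 and CENPU 4 (exact permutation p = 0.328). UHRF1 had r = -0.78 (exact permutation p = 0.0347, adjusted p = 0.052) and rho = -0.76 (exact permutation p = 0.0558, adjusted p = 0.0837), with r = -0.61 without those clones (exact permutation p = 0.135). For CDC45 r was -0.33 (exact permutation p = 0.29, adjusted p = 0.318) and rho -0.35 (exact permutation p = 0.275, adjusted p = 0.33), with r = 0.30 without those clones. For FEN1 r was 0.35 (exact permutation p = 0.318, adjusted p = 0.318) and rho 0.28 (exact permutation p = 0.356, adjusted p = 0.356), with r = 0.33 without those clones. How much of the differences between the groups goes with this relation was not tested. Removal of the trend took out only the mean deviation of genes of like span in each array, and not a gene's own relation to it. The log2 differences were then -0.91 for E2F1, -0.81 for CDC45, -0.71 for UHRF1, -0.40 for FEN1, -0.35 for MCM7 and 0.97 for MCM6, and FEN1 and MCM7 were no longer under the threshold.

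**Figure D5:**
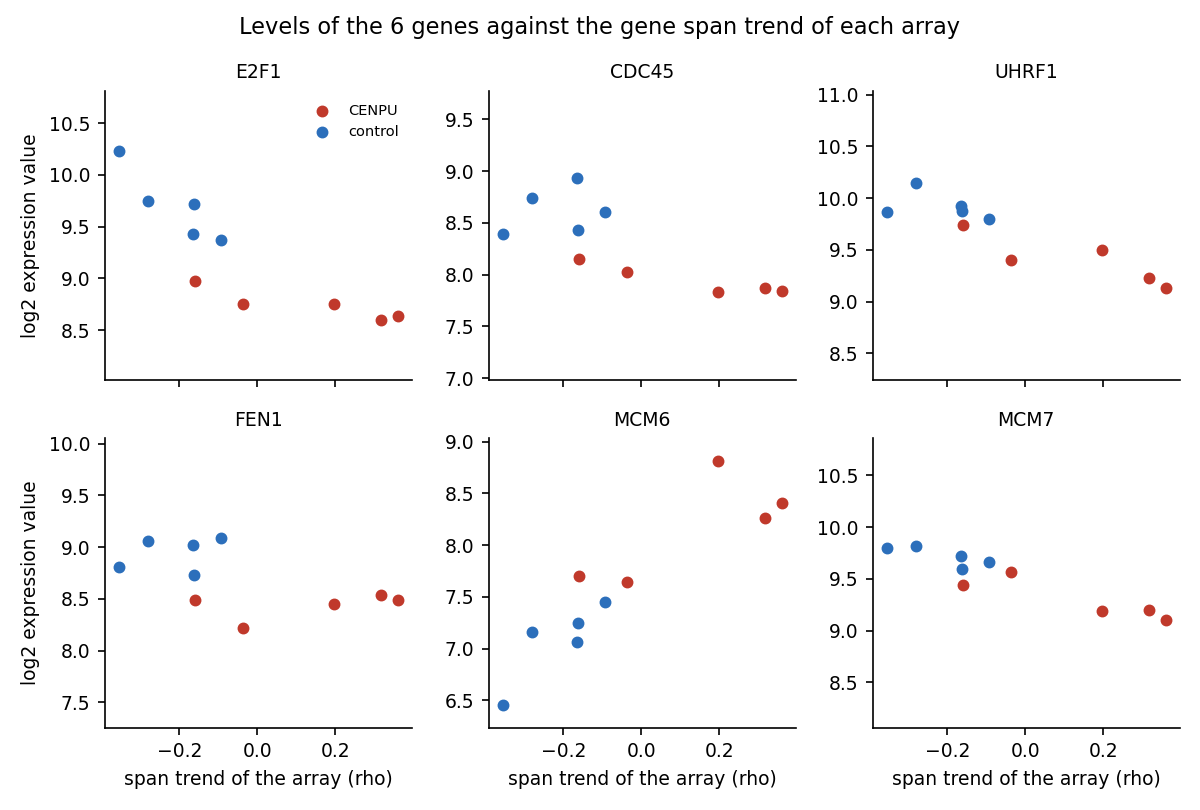
Log2 expression value of each gene (y axis) against the gene span trend of the array (x axis, Spearman's rho between genomic span and deviation over 11916 genes), for CENPU clones (red) and control clones (blue). MCM6 is highest in CENPU 5, 7 and 13, the clones at the right, and lowest in control 2 at the left, and E2F1 is highest in control 2.

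The 6 genes were not found to vary together within groups. Among their 15 pairs, 8 had a positive and 7 a negative Pearson correlation of deviations from the group means over 10 clones. By exact two-sided permutation within groups, 0 pairs passed after Benjamini-Hochberg adjustment over the 15, and 2 had an unadjusted p under 0.05. The strongest, which did not pass after adjustment, was between the helicase subunits MCM6 and MCM7. Its r was -0.78 (exact permutation p = 0.0227, adjusted p = 0.295) and its rho -0.77 (exact permutation p = 0.024, adjusted p = 0.359), with r = -0.71 without CENPU 4 and control 2 (exact permutation p = 0.116). E2F1 and MCM6 had r = -0.63 (exact permutation p = 0.0393, adjusted p = 0.295) and rho = -0.48 (exact permutation p = 0.184, adjusted p = 0.399), and without control 1 and control 2 r was -0.29. Between E2F1 and the other 4 genes r was 0.40 for MCM7, 0.38 for UHRF1, -0.34 for CDC45 and -0.48 for FEN1, with adjusted p from 0.387 to 0.595 (exact permutation). Without control 1 and control 2 these were 0.41, 0.79, 0.02 and -0.20. The unadjusted exact permutation p was then 0.0319 for UHRF1 and from 0.34 to 0.983 for the others.

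The genes whose deviations within groups were most like those of each gene were searched among 7234 brighter genes over the 10 clones, as a description on arrays that share the span trend. E2F1 was most like CENPX, a histone-fold gene of the centromere (r = 0.965), CHMP1A of the ESCRT machinery (0.964) and GMPPB, a GDP-mannose enzyme (0.956). CENPX fell by 0.63 (limma adjusted p = 0.0188) and GMPPB by 0.52 (limma adjusted p = 0.0309), while CHMP1A had -0.16 (limma adjusted p = 0.585). MCM7 was most like UBL4B (0.976), the lamin gene LMNB2 (0.967) and NPM2, a nucleoplasmin gene (0.958). UHRF1 was most like the kinesin gene KIF19 (0.970), H1-10-AS1 (0.962) and PLPPR3 (0.961), and MCM6 was most like WDR12, a ribosome assembly gene (0.957), the prion protein gene PRNP (0.955) and PLPP6 (0.954). CDC45 was most like C16orf90 (0.921), PIANP (0.920) and the Wnt antagonist SFRP1 (0.916). FEN1 was most like the phosphodiesterase gene PDE7A (0.934), the cytochrome b5 gene CYB5A (0.899) and SAE1, a SUMO-activating subunit (0.891). Of these 18 genes, 2 passed the test between the groups, a share near the 10.1% of all genes, and none of the 18 was another of the 6 genes.

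The nearest measured protein-coding gene on each side of each of the 6 was taken, and 0 of these 12 passed in limma, against 10.1% of all genes. At an unadjusted p under 0.05 there were also 0, against 27.9% of all genes. Their log2 differences ran from -0.20 for CLDN5, a claudin gene next to CDC45 (limma adjusted p = 0.22), to 0.32 for CXCR4, a chemokine receptor gene next to MCM6 (limma adjusted p = 0.693). These neighbours were taken after their values had been seen.

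An intron cluster of 3 microRNA genes lies inside MCM7, and 2 of its products are known in human cells to repress E2F1. Their mature sequences, from RefSeq on GRCh38.p14, are shown with the seed, bases 2 to 8, in capitals, because miR-106b and miR-93 share 1 seed and miR-25 has another. They lie on the minus strand at chr7:100094043-100094063 (miR-106b-5p), chr7:100093815-100093837 (miR-93-5p) and chr7:100093571-100093592 (miR-25-3p). The table holds 1 row for each gene and none for a mature form.
hsa-miR-106b-5p: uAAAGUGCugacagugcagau
hsa-miR-93-5p: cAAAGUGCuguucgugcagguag
hsa-miR-25-3p: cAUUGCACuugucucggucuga

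The MIR106B row averaged 5.95 ± 0.22 in CENPU clones, against 6.15 ± 0.21 in control clones (SD, n = 5 each), a log2 difference of -0.19 (limma adjusted p = 0.362). MIR93 had 4.71 ± 0.12 in CENPU clones, against 4.85 ± 0.21 in control clones (SD, n = 5 each), a difference of -0.13 (limma adjusted p = 0.476). MIR25 had 5.87 ± 0.24 in CENPU clones, against 6.30 ± 0.25 in control clones (SD, n = 5 each), a difference of -0.44 (limma adjusted p = 0.0799). All 3 had negative log2 differences, as did the host gene, and 0 passed in limma, with 1, MIR25, at an unadjusted p under 0.05. They were named after their values were seen.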

How the data were processed

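RNA of 10 PC-3 clones was measured on Affymetrix arrays with 1 biotin label. The values are log2 expression values deposited by the authors, 53617 rows from 1.65 to 15.0. Per the submitters' processing notes, Partek and RMA were used, with no version. That the scale is log2 was read off the values, and a genome build was not given in the sources used here. RMA brings arrays to one distribution and can take out a shift common to most genes. Arrays have no read depth, and the 5 clones per group limit the precision.

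A platform table gave 1 gene symbol to 16098 rows, all matched by gene ID to RefSeq (GRCh38.p14), covering 14884 genes. A gene was represented by its row of highest mean. Rows were fitted with limma 3.58.1 in R 4.3.3 (lmFit, eBayes, no covariate), with Benjamini-Hochberg adjustment over the 16098 rows and a threshold of 0.05. The fit was tested on simulated data. The labels call the clones isolates, and p-values reflect only how clones differ among themselves. Correlations used deviations from group means and all 14400 permutations within groups. The span trend was removed by loess (span 0.5).

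The 6 genes, the lists and most alternatives were chosen with earlier results of these data known. Named genes were CENPU, the 6 genes, up to 3 passing genes of each list by smallest p (1 where none passed), and the 3 genes most like each of the 6 within groups. Alternatives were 2 scalings, a filter on dim rows, all rows, robust and trended variances, array weights, a block by clone number, thresholds of 0.01 and 0.10, span trend removal, and leaving out clones.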

Additional observations from a re-analysis of the deposited data

How the results depend on the processing

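The 6 genes kept the direction of their difference, and MCM6 its shift of 1.7 against the other 5 (1.36 to 1.87 over the alternatives without a block), under every alternative run. Since the 6 were chosen for passing this comparison, their passing again under other settings supports nothing. Of the 6, 3 were under the threshold without control 2, CENPU 7 and CENPU 13, 4 with the span trend removed, and 0 with a block by clone number. Genes called higher numbered 791, and 1303 with array weights, 209 without those 3 clones, 130 at 0.01, 1408 at 0.10 and 297 to 1463 without 1 clone. Genes called lower numbered 713, and 261 without the 3 clones, 123 at 0.01, 1180 at 0.10 and 316 to 1008 without 1 clone. Replication list genes called higher numbered 2, and 1 after median centring or with all rows, 5 among brighter rows, 8 with array weights or at 0.10, 4 with the span trend removed, 0 without the 3 clones or at 0.01, and 0 to 7 without 1 clone. Those called lower numbered 8, and 4 without the 3 clones, 1 at 0.01 and 3 to 9 without 1 clone. The cause was not tested, except that fits without clones rest on fewer samples. Correlated pairs stayed at 0 under each alternative run for them.

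Clone numbers 1, 4 and 5 occur in both groups, but they name separate isolates, and their deviations correlated at -0.379, 0.104 and 0.0227. With that number as a replicate block, which leaves 3 pairs to carry the comparison, 22 genes were higher and 33 lower, 0 and 0 of the replication lists, and E2F1 differed by -0.69 and FEN1 by -0.67. The relative shift of MCM6 under the block was added after the data were examined and was 1.4. Each of the 6 genes has 1 named row, so the alternative of another row could not be run. Signal over background was not assessed, because no scanner files were used here.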

Other observations

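Genes that hold an E2F string at their first listed RefSeq start were also followed beyond the 6 genes. There were 479 of them among measured genes, at a median of 0.06 (log2 difference), and 7.31% were higher and 5.85% lower in CENPU clones (limma). The 10264 measured genes without the string had a median of -0.01, with 6.04% higher and 4.99% lower. Among the replication lists, 23 genes held the string and had a median of -0.12, with CDC25A (-0.71) and E2F2 (-0.56) lower and 0 higher in limma. The 42 list genes without it had a median of 0.21, with 2 higher and 4 lower. The shares called lower were near each other, 8.7% with the string and 9.52% without, and those called higher were 0% and 4.76%. Measured genes with no start in the promoter table are in none of these sets. Fewer than the 78 measured list genes, and fewer than their 8 lower genes, are thus counted here. Within the 23, log2 differences ran from -0.71 for CDC25A to 0.88 for TOPBP1, which did not pass (limma adjusted p = 0.072). These are counts of letters in a window, and the sets were compared without a test.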
